A study of Mus musculus with 61 samples.

Results

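Osm, Lif, Il6ra, Il6st and Il27ra encode 2 cytokines and 3 receptor chains of the gp130 system. They are 5 of the 24421 genes counted in this series, were matched by symbol, and all 5 had enough reads to be tested in every fit. gp130 is the signalling chain, shared by the receptors of IL-6, oncostatin M, LIF and IL-27, and it passes the signal to Janus kinases and then mainly to STAT3. Oncostatin M is a cytokine that T cells and myeloid cells release after stimulation, and its gene is a long-known target of STAT5. LIF is its close relative and is also made by activated T cells. On T cells, the IL-6 receptor alpha chain and gp130 are high at rest and shed or reduced after activation, while the IL-27 receptor alpha chain pairs with gp130 to receive IL-27.

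The series has 61 mouse RNA-seq libraries in 17 groups, all labelled C57BL/6 and aged 2 months. Naive CD4+ T cells, sorted from lymph nodes pooled with spleens, came from WT mice and from Stat5a/b-null mice, and were activated with antibodies to the T cell receptor and CD28. They were then transduced with a retrovirus that carried GFP and either nothing else (EV) or wild-type STAT5B or its mutant forms N642H, Y665F and Y665H, kept for 48 h with IL-2, and sorted for CD4 and GFP, with 3 libraries per vector and background. In the null mice a Cd4-Cre transgene deletes floxed Stat5a/b from the double-positive thymocyte stage on. The genotype label names the floxed alleles in all 30 of these libraries, so the background rests on the sample titles. N642H is a leukaemia mutation used as an activating control, and Y665F and Y665H change 1 tyrosine of the SH2 domain. Total T cells were isolated from spleens of WT mice and of mice with Stat5b Y665H or Stat5b Y665F and were held for 24 h with IL-2 and IL-7, with 4 deposited libraries per genotype. Y665H library 4 equalled the sum of Y665H libraries 1 and 2 in each of the 24421 genes. It held no reads of its own and was left out, which leaves 3 Y665H libraries and 60 in all. Whether libraries 1 and 2 came from 1 sample is not given in the labels, and the tests count them as separate libraries. Y665F cells without interleukin gave 3 libraries, with no such group for WT or Y665H, and how these cells were kept is not given in the sources used here. Unstimulated spleens gave 4 WT, 5 Y665H and 7 Y665F libraries, which are titled as splenocytes while their source is given as spleen. The labels of the mutant mice do not say whether 1 or both alleles were changed.

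The reads assigned to genes ran from 18825994 to 49850689 per CD4+ library and from 24203179 to 43330536 per spleen library. Splenic T cell libraries were shallower and more uneven, at 2017012 to 27394249 reads. Levels are CPM, the reads of a gene scaled to a common library size with TMM factors, so a level is relative to the other RNA of the same library. Stat5b stood at 2.78 to 9.49 CPM in null cells with EV, at 187 to 209 CPM in WT cells with EV, and at 186 CPM or above in every other CD4+ library. With STAT5B or a mutant it ran from 186 to 365 CPM in null cells and from 374 to 564 CPM in WT cells. Vectors were not at equal levels: null cells held 246 to 355 CPM with STAT5B and 186 to 255 CPM with N642H. The part of these levels in the differences between vectors and backgrounds was not tested. A gene is said to have risen or fallen where its adjusted p was under 0.05, and it was called where the log2 fold change was also beyond 1 in either direction. A list of 10 T cell genes summed to 3676 to 6020 CPM in the CD4+ libraries, and B cell, neutrophil, monocyte and macrophage, and erythroid lists to at most 9.94, 6.93, 6.05 and 1.97 CPM. A list of 9 stromal and endothelial genes was higher than these, at 59.8 to 178 CPM. Of its genes, 1 fell with N642H and 1 with Y665F in each background.

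Osm (chr11:4236420-4241026) and Lif (chr11:4257557-4272514) lie on the plus strand of chromosome 11 with 16.5 kb between them. Il6ra is on the minus strand of chromosome 3 (chr3:89864059-89913196), Il6st on the plus strand of chromosome 13 (chr13:112464070-112510086) and Il27ra on the minus strand of chromosome 8 (chr8:84030294-84042589). All are protein-coding genes, with positions from GENCODE on GRCm38. RefSeq promoter windows on GRCm38.p6 matched 3 of the 5 genes, Lif, Il6ra and Il6st. The 250 bases before the RefSeq start of Lif and of Il6st are printed because these genes moved in opposite directions across the CD4+ groups. For Lif this window ends at 4257567, past the GENCODE start at 4257557. Capitals mark a TGACTCA, the AP-1 site, in Lif, and CCAAT boxes in Il6st.
Lif, chr11:4257318-4257567, plus strand: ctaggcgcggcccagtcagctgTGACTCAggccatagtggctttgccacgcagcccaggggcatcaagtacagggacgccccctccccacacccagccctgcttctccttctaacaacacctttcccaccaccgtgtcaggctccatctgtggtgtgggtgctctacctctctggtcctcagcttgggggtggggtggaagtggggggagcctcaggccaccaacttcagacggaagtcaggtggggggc
Il6st, chr13:112463820-112464069, plus strand: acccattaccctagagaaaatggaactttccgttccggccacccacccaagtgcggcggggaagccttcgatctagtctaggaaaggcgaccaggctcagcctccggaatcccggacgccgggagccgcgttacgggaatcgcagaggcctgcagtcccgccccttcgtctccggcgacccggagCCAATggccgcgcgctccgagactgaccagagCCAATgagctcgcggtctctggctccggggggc
TGACTCA was found once, 228 bases before the RefSeq start of Lif, and 4.46% of the 32851 RefSeq windows of this length hold it. CCAAT was found 65 and 33 bases before the Il6st start and is in 33.8% of windows. The STAT letters TTCNNNGAA, and the form with 1 more free base in the middle, were not found in the windows of Lif, Il6ra or Il6st, against 7.02% and 5.85% of all windows. Both strands were searched, TGACTCA and CCAAT were chosen after the windows had been read, and a match or its absence is a description of these letters alone. The window of Lif has 63.6% G and C with 6 CpG, that of Il6st 66.0% with 26 CpG, and that of Il6ra 65.2% with 18 CpG.

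The first question was what each STAT5B form does to these genes in cells without their own STAT5. In null cells, Osm and Lif rose with STAT5B, N642H and Y665F and Il6st fell with the same 3 vectors. Il27ra fell less, with N642H and Y665F, and Il6ra did not pass the test with any vector. With Y665H no gene of the 5 passed. Against EV, 2 of the 5 were called with STAT5B, where 0.477% of the 20113 genes tested were called, 3 with N642H against 2.88%, 3 with Y665F against 2.37%, and 0 with Y665H against 0.0249%.

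Osm stood at 6.79, 8.20 and 8.35 CPM in the 3 null EV libraries. It stood at 20.7, 29.3 and 17.4 CPM with STAT5B, at 31.3, 35.0 and 25.0 CPM with N642H and at 30.7, 36.0 and 22.6 CPM with Y665F. Every library of these 3 vectors was above every EV library. The Y665H libraries, at 10.04, 9.97 and 10.8 CPM, lay between EV and the other vectors and overlapped neither. Osm rose with STAT5B by a log2 fold change of 1.52 (SE 0.20, adjusted p = 0.000435), with N642H by 1.94 (SE 0.20, adjusted p = 1.02e-05) and with Y665F by 1.91 (SE 0.20, adjusted p = 1.21e-05). The difference of Y665H from EV was 0.42 (SE 0.20, adjusted p = 0.896).

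Lif had the same order of vectors. It stood at 22.0, 27.4 and 38.7 CPM with EV, at 91.3, 98.0 and 99.3 CPM with STAT5B, at 103, 128 and 131 CPM with N642H and at 106, 120 and 115 CPM with Y665F. EV did not overlap with any of these. Lif rose by a log2 fold change of 1.70 with STAT5B (SE 0.16, adjusted p = 7.29e-06), of 2.00 with N642H (SE 0.16, adjusted p = 4.31e-07) and of 1.92 with Y665F (SE 0.16, adjusted p = 7.81e-07). Y665H, at 44.5, 46.9 and 42.4 CPM, was above all EV libraries by 0.62 on the log2 scale (SE 0.16), which did not pass (adjusted p = 0.896). With the replicate number as a block, the Lif difference of 0.64 passed at an adjusted p of 0.0328, still within the fold limit. Without EV replicate 3, the highest EV library for Lif, it was 0.85 with an adjusted p of 0.0193.

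Il6st, the gp130 gene, ran the other way. It stood at 202, 191 and 122 CPM with EV, at 107, 101 and 95.9 CPM with STAT5B, at 73.7, 79.2 and 73.9 CPM with N642H and at 71.7, 80.3 and 90.5 CPM with Y665F. All 9 libraries of these vectors were below the lowest EV library. Il6st fell by 1.22 on the log2 scale with N642H (SE 0.16, adjusted p = 0.000105) and by 1.12 with Y665F (SE 0.16, adjusted p = 0.000270), and both were called. With STAT5B it fell by 0.77 (SE 0.16, adjusted p = 0.0194), short of the fold limit. Leaving out either of EV replicates 1 and 2 or any of the 3 STAT5B replicates took that adjusted p to between 0.0508 and 0.111. With Y665H, at 168, 135 and 117 CPM, the difference was -0.28 (SE 0.16, adjusted p = 0.896) and the groups overlapped.

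Il27ra, the specific chain for IL-27, fell by 0.43 on the log2 scale with N642H (SE 0.11, adjusted p = 0.0142) and by 0.45 with Y665F (SE 0.11, adjusted p = 0.0119). Its levels were 119, 124 and 94.1 CPM with EV, 82.9, 87.4 and 87.3 CPM with N642H and 79.7, 89.8 and 81.6 CPM with Y665F, without overlap. The first fall did not pass without EV replicate 1 or 2 or N642H replicate 1 or 3, with adjusted p from 0.0585 to 0.0984. The second did not pass without EV replicate 1 or 2 or Y665F replicate 1, with adjusted p from 0.0665 to 0.0783, or with its groups fitted alone (0.0519). Il6ra, the IL-6 binding chain, ranged from 76.3 to 111 CPM over all 15 null libraries, and its difference from EV lay between 0.020 and 0.16 on the log2 scale with the 4 vectors. Its 95% interval for N642H was -0.24 to 0.28. By the adjusted p alone, 1.52% of genes passed with STAT5B, 11.6% with N642H and 9.58% with Y665F, and of the 5 genes 3, 4 and 4 did. Of 6 naive T cell genes, 2 fell with N642H and 2 with Y665F, and of the 10 T cell genes 5 fell and 2 rose with each. The naive list summed to 1477 to 1843 CPM with EV, 1024 to 1245 CPM with N642H and 968 to 1328 CPM with Y665F, and its part in the falls of Il6st and Il27ra was not tested.

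**Figure D1:**
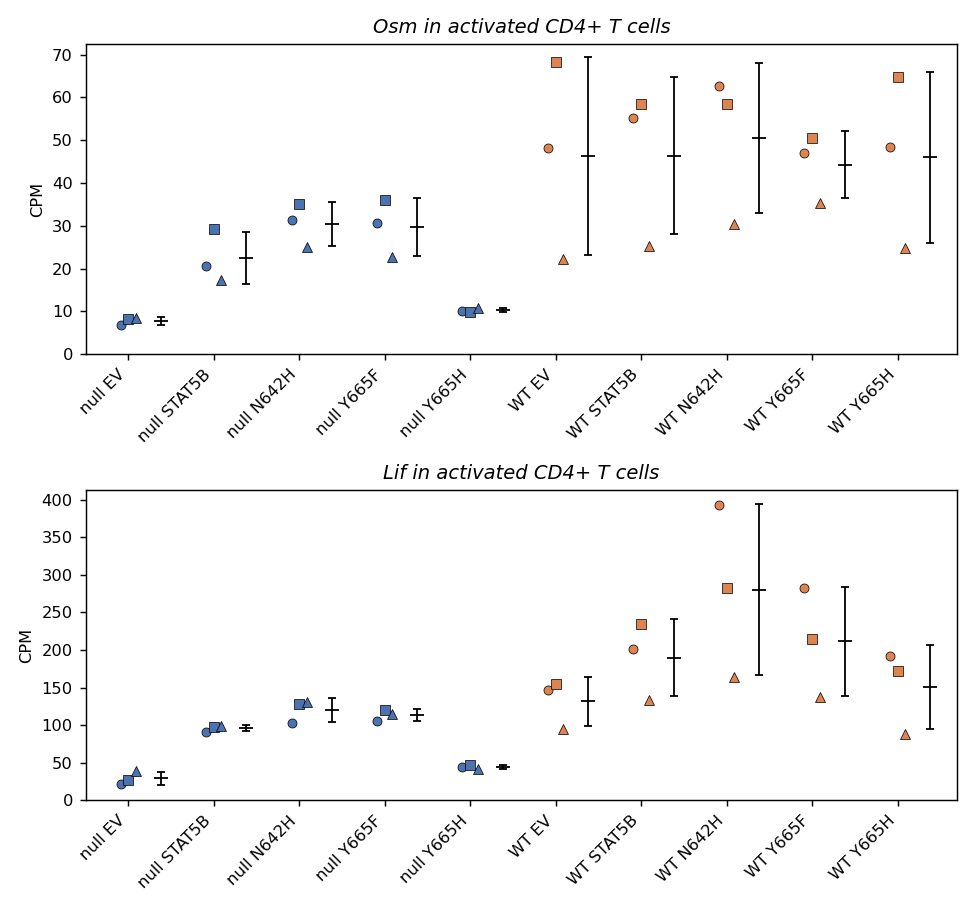
Osm and Lif in CPM (linear axis from 0) in the 30 CD4+ libraries, null in blue and WT in orange, with marker shape for the replicate number (circle 1, square 2, triangle 3) and a bar for the mean and SD of each group. Null EV and null Y665H sit lowest, at 6.79 to 10.8 CPM for Osm, and the triangles of replicate 3 are the lowest of every WT vector.

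The second question was how the mutants compare with STAT5B itself in the null cells. Against STAT5B, Osm was lower with Y665H by 1.11 on the log2 scale (SE 0.20, adjusted p = 0.0216) and Lif by 1.08 (SE 0.15, adjusted p = 0.00459). These were 2 of the 5 genes where 0.149% of all genes were called. The groups did not overlap for either gene. For Osm the adjusted p rose to between 0.101 and 0.139 when STAT5B replicate 1 or 2, or Y665H replicate 1 or 3, was left out, and for Lif it was 0.0601 without Y665H replicate 3. Il6st was higher with Y665H than with STAT5B by 0.49 (SE 0.16, adjusted p = 0.249), and 0.48 with an adjusted p of 0.0465 under the replicate block.

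N642H and Y665F were not separated from STAT5B on any of the 5 genes, where 0.0696% and 0.00994% of all genes were called. Osm was higher than with STAT5B by 0.41 with N642H (95% interval 0.038 to 0.79, adjusted p = 0.815) and by 0.39 with Y665F (0.015 to 0.76, adjusted p = 0.987). Il6st was lower by 0.45 with N642H (SE 0.16, adjusted p = 0.644) and by 0.35 with Y665F (SE 0.16, adjusted p = 0.986). Between Y665F and N642H no gene passed, and 0% of all genes were called. The log2 difference of Y665F from N642H was -0.023 for Osm (95% interval -0.40 to 0.35), -0.077 for Lif (-0.37 to 0.22) and 0.10 for Il6st (-0.21 to 0.41).

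The third question was how null and WT cells differ without an added STAT5B form, from the EV libraries of both backgrounds. In null cells Osm and Lif were lower, Il6st was higher and Il6ra was slightly lower than in WT cells. WT EV libraries held 48.2, 68.3 and 22.2 CPM of Osm and 147, 155 and 94.9 CPM of Lif, all above null EV. Osm was lower in null cells by 2.57 on the log2 scale (SE 0.36, adjusted p = 1.52e-05) and Lif by 2.17 (SE 0.29, adjusted p = 8.85e-06). Il6st was at 50.3, 61.6 and 75.7 CPM in WT EV, all below null EV, and was higher in null cells by 1.46 (SE 0.24, adjusted p = 0.000121). These 3 of the 5 genes were called, where 4.68% of the 21975 genes tested were. Il6ra, at 107, 146 and 135 CPM in WT EV and 76.3, 104 and 81.2 CPM in null EV, was lower in null cells by 0.57 (SE 0.15, adjusted p = 0.0121). It makes 4 of the 5 genes by the adjusted p alone, which 13.9% of all genes passed, and its adjusted p was 0.0518 to 0.0897 when null EV replicate 1 or 3 or WT EV replicate 2 or 3 was left out. Il27ra did not separate the backgrounds, with 0.11 (SE 0.17, adjusted p = 0.756). Marker genes differed too: of 6 naive T cell genes 3 rose and 2 fell in null cells. Of the 10 T cell genes 4 rose and 2 fell, and of 9 effector and memory genes 1 rose. Their part in these differences was not tested.

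Null cells given STAT5B were compared with WT cells given EV. None of the 5 genes passed, where 0.778% of all genes were called. Osm was 1.04 lower on the log2 scale (SE 0.34, adjusted p = 0.187), Lif 0.46 lower (SE 0.28, adjusted p = 0.669) and Il6st 0.69 higher (SE 0.24, adjusted p = 0.219). All 3 STAT5B-reconstituted libraries had more Il6st than the 3 WT EV libraries, at 95.9 to 107 CPM against 50.3 to 75.7 CPM. The Osm values overlapped.

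In WT cells the libraries numbered 3 stood apart. Within each of the 5 WT vectors, replicate 3 had the lowest Osm (22.2 to 35.4 CPM against 46.9 to 68.3 CPM in replicates 1 and 2), the lowest Lif and the highest Il6st. The labels give no batch or date, so values in WT cells are given with and without replicate 3 of every vector. Leaving it out was chosen after the values of these same genes had been seen. The adjusted p-values without it are therefore a description and no independent support. Without it, the differences between null and WT EV were -2.89 for Osm (adjusted p = 1.99e-10), -2.35 for Lif (adjusted p = 2.83e-10), 1.63 for Il6st (adjusted p = 2.61e-06) and -0.52 for Il6ra (adjusted p = 0.0344), against 6.58% of genes called. Null STAT5B against WT EV then gave -1.36 for Osm (adjusted p = 6.72e-05), which was called where 2.66% of genes were. Lif, at -0.65 (adjusted p = 0.0216), and Il6st, at 0.86 (adjusted p = 0.00951), also passed in that comparison.

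With their own STAT5 present, WT cells had no called change of any of the 5 genes with any vector in the fit of all 15 libraries without a block. Of the 20509 genes tested, 0.00975% were called for STAT5B, 0.985% for N642H, 0.707% for Y665F and 0.00488% for Y665H. Osm did not differ from EV by more than 0.15 on the log2 scale with any vector (SE 0.40 for each), and its WT groups all overlapped. The 95% interval for Osm with N642H was -0.64 to 0.93. Lif reached 392, 283 and 165 CPM with N642H, a difference of 1.10 (SE 0.34, adjusted p = 0.150), and 283, 215 and 138 CPM with Y665F, a difference of 0.69 (SE 0.34, adjusted p = 0.373). Lif with N642H was above all EV libraries. With the replicate number as a block, there were calls among the 5 genes with N642H and with Y665F, and the last section gives their number.

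Il6st and Il27ra had lower values with N642H and Y665F in WT cells too, without passing in the fit without a block. Il6st was at 23.4, 31.1 and 34.7 CPM with N642H and at 22.7, 27.9 and 38.6 CPM with Y665F, all below WT EV. The differences were -1.05 (SE 0.28, adjusted p = 0.0826) and -1.06 (SE 0.28, adjusted p = 0.0798). Il27ra was at 49.0, 61.6 and 71.0 CPM with N642H and at 49.1, 56.3 and 74.0 CPM with Y665F, against 83.8, 119 and 111 CPM with EV. Its differences were -0.76 (SE 0.21, adjusted p = 0.0989) and -0.79 (SE 0.21, adjusted p = 0.0857).

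Without replicate 3 of every WT vector, the fit left 2 libraries per group. Lif then rose with N642H by 1.17 (adjusted p = 0.000589) and Il6st fell by 1.02 with N642H (adjusted p = 0.00822) and by 1.14 with Y665F (adjusted p = 0.00470). These were 2 of the 5 genes called with N642H, against 3.15% of genes, and 1 with Y665F, against 2.78%. Il27ra fell by 0.86 with N642H (adjusted p = 0.0274) and by 0.93 with Y665F (adjusted p = 0.0161), and Lif rose by 0.73 with Y665F (adjusted p = 0.0173), all inside the fold limit. Osm did not pass, at 0.067 with N642H and -0.25 with Y665F (adjusted p = 0.936 and 0.397).

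**Figure D2:**
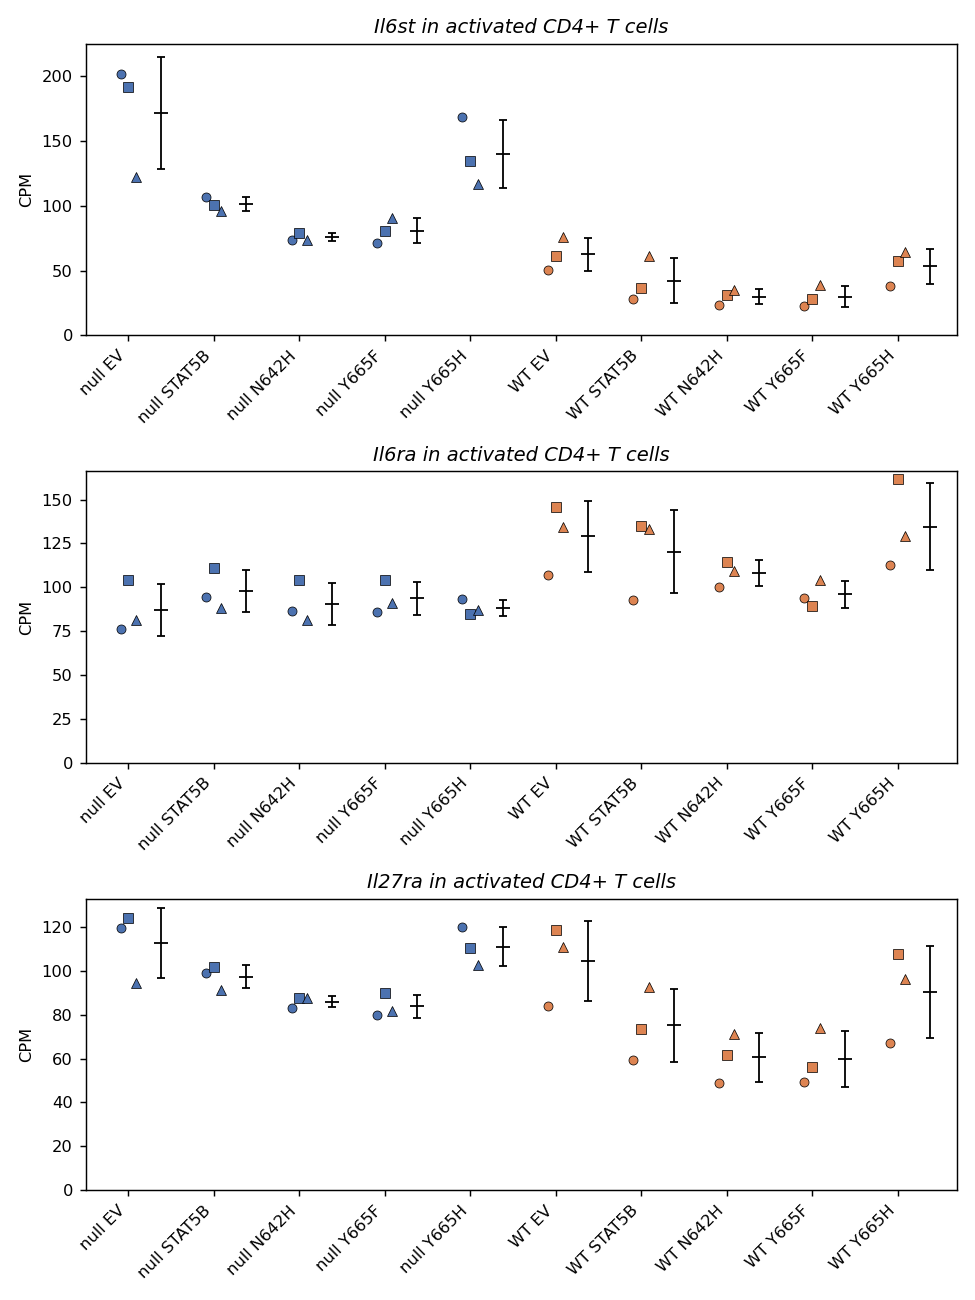
Il6st, Il6ra and Il27ra in CPM (linear axes from 0) in the 30 CD4+ libraries, in the colours and marker shapes of the plot of Osm and Lif, with a bar for the mean and SD of each group. Il6st runs from null EV (122 to 202 CPM) to WT Y665F (22.7 to 38.6 CPM), while the Il6ra groups overlap from one to the next.

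Whether the response to a vector differed between backgrounds was tested by an interaction, the WT difference from EV minus the null difference. None of the 5 genes passed, with 0.1% of all genes called for STAT5B, 0.341% for N642H, 0.419% for Y665F and 0.00455% for Y665H. The largest values were those of Osm, at -1.53 for STAT5B (SE 0.49, adjusted p = 0.735), -1.84 for N642H (SE 0.49, adjusted p = 0.105) and -2.002 for Y665F (SE 0.49, adjusted p = 0.0605). Lif had -1.19 for STAT5B (SE 0.40, adjusted p = 0.811), -0.96 for N642H (SE 0.40, adjusted p = 0.401) and -1.27 for Y665F (SE 0.40, adjusted p = 0.238). For Il6st the interactions lay between 0.016 and 0.19 with standard errors near 0.33, so the falls in the 2 backgrounds were not separated.

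Without replicate 3 of every WT vector the Osm interactions were -1.54 (adjusted p = 0.0139), -1.90 (adjusted p = 0.000438) and -2.15 (adjusted p = 8.14e-05) for STAT5B, N642H and Y665F, and all 3 were called. Lif was called for STAT5B at -1.15 (adjusted p = 0.0451) and for Y665F at -1.19 (adjusted p = 0.00910). The shares of genes called were 0.16%, 1.09% and 1.03%. The direction of the Osm interactions was the same with and without those 5 libraries. Without them each WT group held 2 libraries. They were left out after Osm and Lif had been seen, so these calls are no independent support for an interaction.

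Over the 10 CD4+ groups the mean of Osm fell in the order WT N642H, WT STAT5B, WT EV, WT Y665H and WT Y665F (50.5 to 44.3 CPM), then null N642H, null Y665F and null STAT5B (30.4 to 22.5 CPM), then null Y665H (10.3 CPM) and null EV (7.78 CPM). Neighbours within the first 5 and within the next 3 overlapped. In the order of Lif, neighbours overlapped from WT N642H (280 CPM) to null Y665F (114 CPM), and null STAT5B (96.2 CPM), null Y665H (44.6 CPM) and null EV (29.4 CPM) each stood below their upper neighbour without overlap. Il6st ran from null EV (172 CPM) and null Y665H (140 CPM), which overlapped, over null STAT5B (101 CPM), apart from both its neighbours, to null Y665F (80.8 CPM) and the other groups down to WT Y665F (29.7 CPM), each of which overlapped the next. All neighbours overlapped for Il6ra (135 to 87.2 CPM) and Il27ra (112 to 59.8 CPM).

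Levels of different genes were compared per kilobase of annotated exon. In WT EV cells Lif and Il27ra were the most abundant of the 5, at 30.4 and 29.8 CPM per kb, followed by Osm at 20.3, Il6ra at 14.9 and Il6st at 5.64 CPM per kb. In null EV cells Il27ra led with 32.2 CPM per kb and Il6st followed with 15.5, while Osm was last with 3.42 CPM per kb. The exon lengths are those of GENCODE, since the annotation used for counting is not given in the sources used here.

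Across the 30 CD4+ libraries, log levels of Osm and Lif had a Pearson correlation of 0.94, Il6st and Il27ra of 0.88, and Lif and Il6st of -0.93. Il6ra was less tied to the others, from -0.31 with Il6st to 0.53 with Osm. The libraries share vectors, backgrounds and replicate numbers, so these are descriptions. Among 11459 genes that averaged 1 CPM or more, the highest correlations with Osm were those of Pim1, a kinase gene (0.97), Hbegf, a growth factor gene (0.97), and Fcmr, the Fc receptor gene for IgM (0.97). With Lif they were Hemk1, a methyltransferase gene (0.97), Cars, a tRNA ligase gene (0.96), and the cytokine gene Tnf (0.96). With Il6st they were the costimulatory receptor gene Cd27 (0.98), Pdlim5 (0.98) and Clcn4-2 (0.98). With Il27ra they were Fam65b (0.95), Fgd3 (0.95) and Fam134c (0.95), and with Il6ra Lrrc8a (0.91), Ncoa3 (0.91) and Eps15l1 (0.88).

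**Figure D3:**
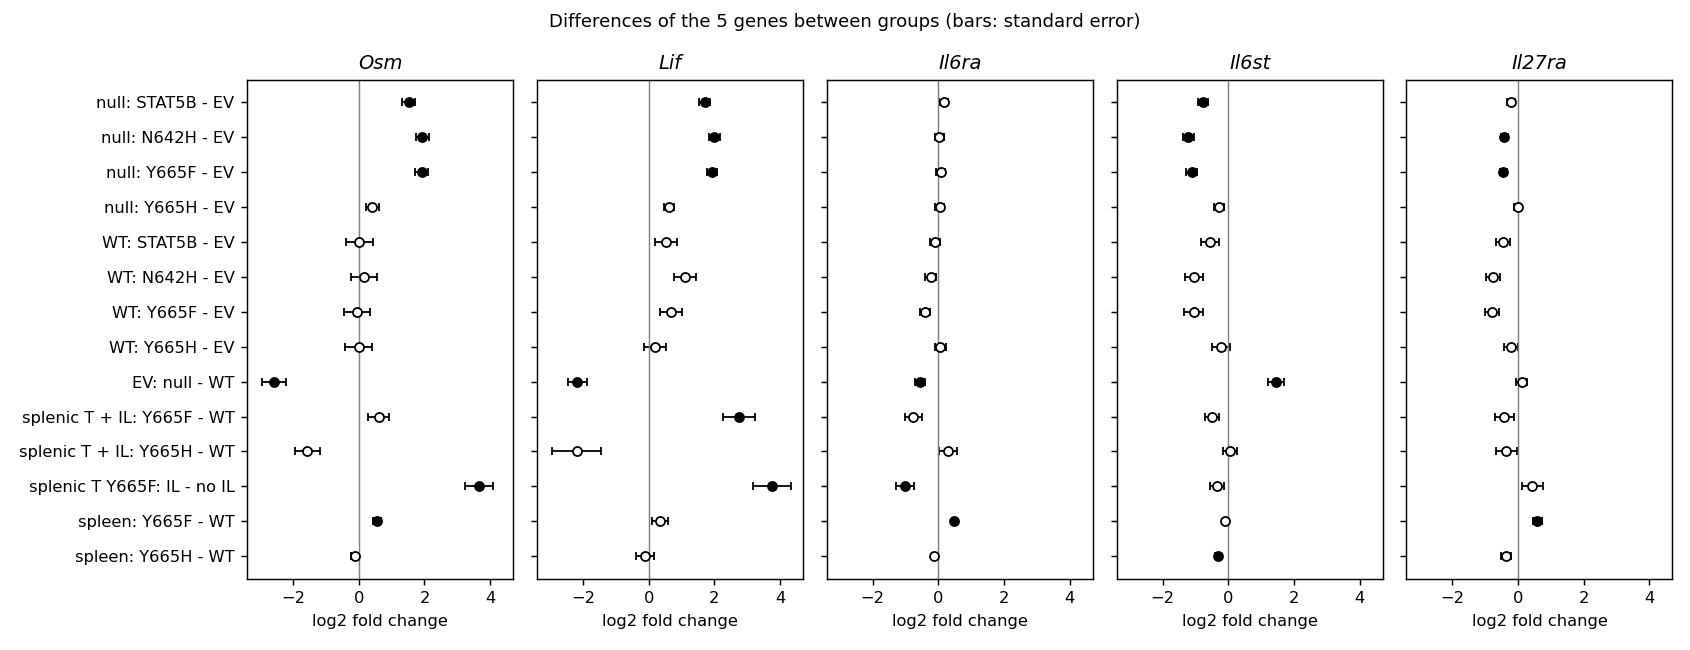
Log2 fold changes (horizontal axes) of the 5 genes in 14 of the 25 comparisons, with bars for the standard error and filled circles for an adjusted p under 0.05. Osm and Lif are filled on the right for 3 vectors in null cells, where Il6st is filled on the left, and all circles of the WT vectors are open.

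The rest of the gp130 pathway was followed through a list of 24 genes, made of 8 other ligands, 5 other receptor chains, 9 signalling genes and the 2 sheddases. In null cells 23 of the 24 could be tested. With N642H, 2 were called higher and 1 lower, where 2.88% of all genes were called. With Y665F 2 were called higher, where 2.37% of all genes were called. The higher ones were both feedback inhibitors of cytokine signalling. Socs1 rose by 2.78 on the log2 scale with N642H (SE 0.30, adjusted p = 1.68e-05), by 2.64 with Y665F (SE 0.30, adjusted p = 3.28e-05) and by 2.16 with STAT5B (SE 0.30, adjusted p = 0.000705), where it was the only one called. Socs3 rose by 2.13 with N642H (SE 0.50, adjusted p = 0.00976) and by 1.87 with Y665F (SE 0.50, adjusted p = 0.0236). Ptpn11, the phosphatase SHP-2 that docks on gp130, fell by 1.01 with N642H (SE 0.14, adjusted p = 0.000137) and, within the fold limit, by 0.92 with Y665F (adjusted p = 0.000394) and by 0.71 with STAT5B (adjusted p = 0.0133). Jak1 fell by 0.44 and 0.39 with N642H and Y665F (adjusted p = 0.0166 and 0.0371). None of the 23 passed with Y665H against EV, and Socs1 was lower with Y665H than with STAT5B by 1.43 (SE 0.29, adjusted p = 0.0459). The median log2 fold change of the list was -0.28 with N642H and -0.18 with Y665F, against 0.012 and -0.024 over all genes.

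Between the EV libraries, null cells had less Socs1, with a log2 difference of -3.17 (SE 0.36, adjusted p = 5.94e-07) and less Socs3, with -2.41 (SE 0.51, adjusted p = 0.00166), and more Ptpn11 by 1.51 (SE 0.19, adjusted p = 3.55e-06). Stat3 and Jak2 were also higher, by 0.75 and 0.48 (adjusted p = 0.00187 and 0.0157). STAT3 is the main factor that gp130 activates. In WT cells none of the 23 list genes tested passed with any vector in the fit without a block. Socs3 with N642H was at 1.14 there (SE 0.39, adjusted p = 0.227). Without replicate 3 of every WT vector, Socs3 rose by 1.25 (adjusted p = 0.000566) and Adam10 fell by 0.49 (adjusted p = 0.0376) with N642H. Socs1 was the only list gene with a called interaction, at -2.63 for N642H and -2.61 for Y665F (adjusted p = 0.00390 and 0.00416).

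In splenic T cells held with IL-2 and IL-7, Lif was higher in Y665F than in WT cells, and both ligands were higher and Il6ra was lower in Y665F than in Y665H cells. Y665F libraries with interleukin had more Osm and Lif and less Il6ra than those without it, a comparison in which interleukin and culture cannot be told apart. Between Y665H and WT no gene of the 5 passed. Of the 5 genes, 1 was called for Y665F against WT, where 1.32% of the 22295 genes tested were, 3 for Y665F against Y665H, where 2.5% were, 3 for Y665F with against without interleukin, where 2.63% were, and 0 for Y665H against WT, where 0% were.

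Osm was at 25.8, 52.7, 82.0 and 21.7 CPM in WT cells, at 19.5, 13.5 and 13.4 CPM in Y665H cells and at 81.1, 70.5, 39.0 and 85.4 CPM in Y665F cells, all with interleukin. In Y665F cells without it, Osm was at 3.83, 7.40 and 5.06 CPM. Every Y665H library was below every WT library, and WT overlapped Y665F. Osm was higher in Y665F than in Y665H by 2.17 on the log2 scale (SE 0.40, adjusted p = 0.00272) and higher with interleukin than without in Y665F by 3.67 (SE 0.42, adjusted p = 4.90e-06). Y665F against WT gave 0.60 (SE 0.33, adjusted p = 0.329) and Y665H against WT -1.56 (SE 0.39, adjusted p = 0.388). The latter was -1.46 with an adjusted p of 0.0437 with an RUVr factor, a term for unwanted variation, and passed under no other setting tried.

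Lif was scarce in these cells. WT libraries held 1.97, 1.80, 3.001 and 0.925 CPM, Y665H libraries 0.279, 0.963 and 0.342 CPM, from 1, 2 and 5 reads, and Y665F libraries with interleukin 10.6, 5.41, 17.03 and 20.2 CPM. Without interleukin, Y665F cells held 2.07, 0.623 and 0.346 CPM. The Y665F libraries with interleukin stood above all others. Lif was higher in them than in WT by 2.76 (SE 0.48, adjusted p = 0.00482), than in Y665H by 4.95 (SE 0.73, adjusted p = 0.000400) and than in Y665F without interleukin by 3.76 (SE 0.59, adjusted p = 0.000256). Pooled over libraries, 624 reads in Y665F against 8 in Y665H gave a ratio of 31.0, with an exact 95% Poisson interval of 15.6 to 72.03 that covers counting error only. Y665H against WT was -2.18 (SE 0.75, adjusted p = 0.889).

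Il6ra went the other way in Y665F cells with interleukin, at 117, 139, 48.1 and 90.0 CPM. It was at 255, 186 and 174 CPM in Y665H, at 178, 151, 173 and 171 CPM in WT and at 195, 139 and 268 CPM in Y665F without interleukin. All Y665H and WT libraries lay above all Y665F libraries with interleukin, and the ranges with and without interleukin met at 139 CPM. Il6ra was lower in Y665F than in Y665H by 1.05 (SE 0.27, adjusted p = 0.0347), which did not pass when any of the 3 Y665H libraries or Y665F replicate 3 or 4 was left out (adjusted p from 0.0554 to 0.185). It was lower with interleukin than without by 1.02 (SE 0.27, adjusted p = 0.0358), which did not pass without Y665F replicate 3 or 4 with interleukin or replicate 1 or 3 of the cells without it (adjusted p from 0.0537 to 0.226). Against WT it was 0.77 lower (SE 0.26, adjusted p = 0.134).

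Il6st was at 316, 352, 218 and 274 CPM in Y665F with interleukin, at 447, 378 and 451 CPM in Y665H and at 458, 408, 358 and 413 CPM in WT. All Y665F libraries were below all Y665H and WT libraries, and neither difference passed. Y665F against Y665H gave -0.55 (SE 0.21, adjusted p = 0.206), and -0.59 with an adjusted p of 0.0477 where the summed Y665H library was kept. Against WT the difference was -0.50 (SE 0.20, adjusted p = 0.200). Il27ra overlapped between all neighbouring groups, with means from 150.4 CPM in WT to 83.5 CPM in Y665F without interleukin, and passed no test.

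**Figure D4:**
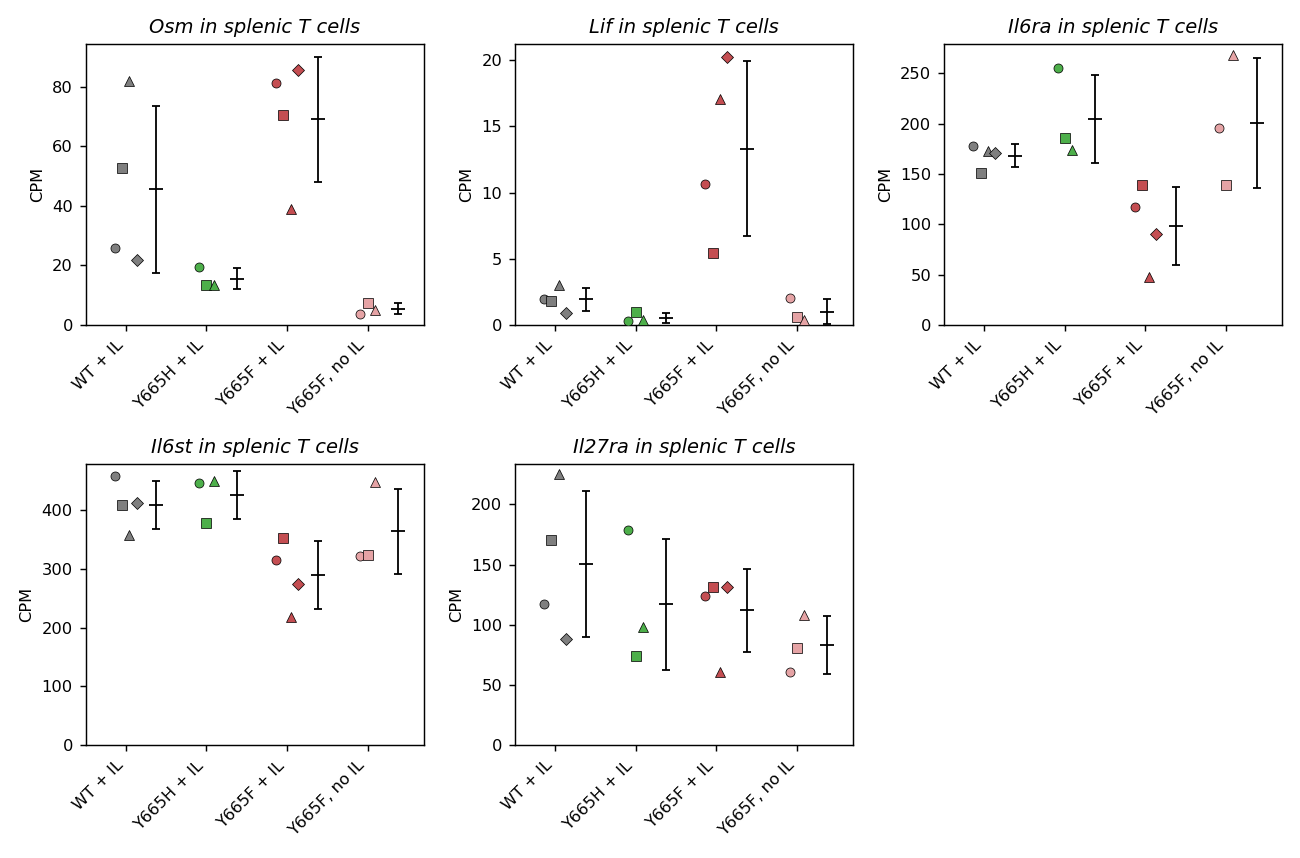
The 5 genes in CPM (linear axes from 0, each with its own range) in the 14 splenic T cell libraries used, with marker shape for the replicate number (circle 1, square 2, triangle 3, diamond 4) and a bar for the mean and SD of each group. For Lif, the 4 Y665F libraries with interleukin lie at 5.41 to 20.2 CPM, above all the other libraries.

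The make-up of these libraries was not even, and in bulk RNA fewer cells of a type and less RNA per cell cannot be told apart. A summed list of 10 T cell genes was at 2244 to 3240 CPM in WT, 2228 to 2377 in Y665H and 846 to 2611 in Y665F with interleukin, with the lowest value in Y665F replicate 3, which had 2851451 reads. A list of 6 naive T cell genes was at 4746 to 5210 CPM in WT, 4515 to 4928 in Y665H and 1616 to 4030 in Y665F with interleukin, and 9 effector and memory genes at 334 to 488, 149.7 to 304 and 502 to 1203 CPM. Of the naive genes, 1 of 6 fell and of the effector genes 4 of 9 rose in Y665F against Y665H. In Y665F without interleukin the T cell, naive and effector lists were at 1482 to 2441, 3538 to 5970 and 291 to 449 CPM. With against without interleukin, 1 of the 6 naive genes fell and 2 of the 9 effector genes rose. Other cell types were also represented. The 8 B cell genes summed to 13.5 to 102 CPM in WT, 15.6 to 34.2 CPM in Y665H, 19.4 to 661 CPM in Y665F with interleukin and 25.4 to 44.3 CPM without, and 2 of the 8 rose in Y665F against Y665H. The 9 neutrophil genes summed to 10.2 to 17.8, 23.1 to 94.5, 81.6 to 301 and 73.3 to 209 CPM in the same order, and 5 of the 9 rose in Y665F against WT. The 8 monocyte and macrophage genes summed to 131 to 155, 21.5 to 373, 76.6 to 245 and 104 to 292 CPM, and none passed in any of the 4 comparisons. The 7 erythroid genes found summed to 5.81 to 36.6, 15.9 to 33.0, 6.57 to 1036 and 10.8 to 60.3 CPM, with 3 of the 7 at 0, and 9 stromal and endothelial genes to 292 to 350.4, 259 to 269, 165 to 248 and 166 to 239 CPM. The part of these shifts in the results was not tested.

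Scaled to the T cell list in place of TMM, which moved the median of all genes by 0.80 for Y665F against WT and by 0.54 for Y665F against Y665H, Lif differed by 3.86 (adjusted p = 0.00805) and 5.71 (adjusted p = 0.00420) in these comparisons and Osm by 1.44 (adjusted p = 0.0268) and 2.64 (adjusted p = 0.00420). Il6ra was then 0.66 lower in Y665F than in Y665H (adjusted p = 0.198), and Il6st -0.020 (adjusted p = 0.977). Under that scaling Il6ra with against without interleukin in Y665F was -0.84 (adjusted p = 0.132), while Osm and Lif still rose, by 3.82 and 4.23 (adjusted p = 8.37e-05 and 0.00382).

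Of the 24 other pathway genes in splenic T cells, Lifr, the LIF receptor chain that pairs with gp130, was the only one called in Y665F against WT (3.81, SE 0.83, adjusted p = 0.0185) and against Y665H (3.72, SE 1.01, adjusted p = 0.0434). Y665F replicate 3 held 89.2 CPM of it and replicate 4 18.03 CPM, while replicates 1 and 2 held 1.49 and 2.53 CPM. Without replicate 3 the differences were 1.93 (adjusted p = 0.185) and 1.86 (adjusted p = 0.267). With interleukin, Y665F cells had 2 of the 24 called higher than without it, where 2.63% of all genes were called. Among them was Socs3, which rose by 1.84 (SE 0.36, adjusted p = 0.00255). Jak1 fell there by 0.99 (SE 0.24, adjusted p = 0.0158), inside the fold limit. Socs1 differed by 1.33 (SE 0.38, adjusted p = 0.0522) and Stat3 by 0.75 (SE 0.22, adjusted p = 0.0662). The median of the list was 0.025, against -0.13 over all genes.

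In spleens the 5 genes moved by less than 1 on the log2 scale, and Lif did not pass in any comparison. Osm, Il6ra and Il27ra rose in Y665F against both WT and Y665H, and Il6st was lowest in Y665H. No gene of the 5 was called, where 1.2% of the 19418 genes tested were called for Y665F against WT, 4.37% for Y665H against WT and 5.28% for Y665F against Y665H. By the adjusted p alone 3, 1 and 4 of the 5 passed, against 12.2%, 19.8% and 25.8% of all genes.

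Osm was at 3.70, 5.40, 5.11 and 5.22 CPM in WT spleens, at 3.95 to 4.78 CPM with a median of 4.73 in the 5 Y665H spleens and at 6.42 to 8.07 CPM with a median of 6.84 in the 7 Y665F spleens. All Y665F spleens were above all others. The log2 fold change was 0.56 against WT (SE 0.11, adjusted p = 0.00402) and 0.66 against Y665H (SE 0.10, adjusted p = 0.000250). Il6ra was at 63.3, 80.6, 73.8 and 80.0 CPM in WT, at 62.9 to 74.9 CPM (median 65.2) in Y665H and at 99.6 to 107 CPM (median 106) in Y665F, again without overlap. It rose by 0.48 against WT (SE 0.070, adjusted p = 0.000437) and by 0.62 against Y665H (SE 0.065, adjusted p = 5.47e-06).

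Il27ra was at 59.3, 77.0, 80.7 and 88.6 CPM in WT, at 45.9 to 81.9 CPM (median 55.0) in Y665H and at 97.4 to 135 CPM (median 112) in Y665F. Here too the Y665F spleens stood above all others, by 0.59 against WT (SE 0.14, adjusted p = 0.0122) and by 0.95 against Y665H (SE 0.13, adjusted p = 8.47e-05). Without WT replicate 1 the rise against WT had an adjusted p of 0.0550. Y665H against WT was -0.37 (SE 0.15, adjusted p = 0.0876). It passed without Y665H replicate 1, the highest Y665H spleen (-0.48, adjusted p = 0.00800), and without WT replicate 1 (-0.45, adjusted p = 0.0481).

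Il6st was at 436, 440, 395 and 426 CPM in WT, at 285 to 376 CPM (median 361) in Y665H and at 365 to 428 CPM (median 396) in Y665F. It was lower in Y665H than in WT by 0.33 (SE 0.079, adjusted p = 0.00756), without overlap, and higher in Y665F than in Y665H by 0.24 (SE 0.069, adjusted p = 0.0183), with overlap. Fitted with its 2 groups alone, the first difference gave an adjusted p of 0.0622. The second gave 0.0502 when Y665H replicate 3 was left out. Lif was at 1.15 to 1.46 CPM in WT, 0.727 to 2.08 CPM in Y665H and 1.39 to 2.40 CPM in Y665F. Without Y665H replicate 1, the highest Y665H spleen, Lif was 0.73 higher in Y665F than in Y665H (adjusted p = 0.00950), against 0.47 with it (SE 0.23, adjusted p = 0.155).

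**Figure D5:**
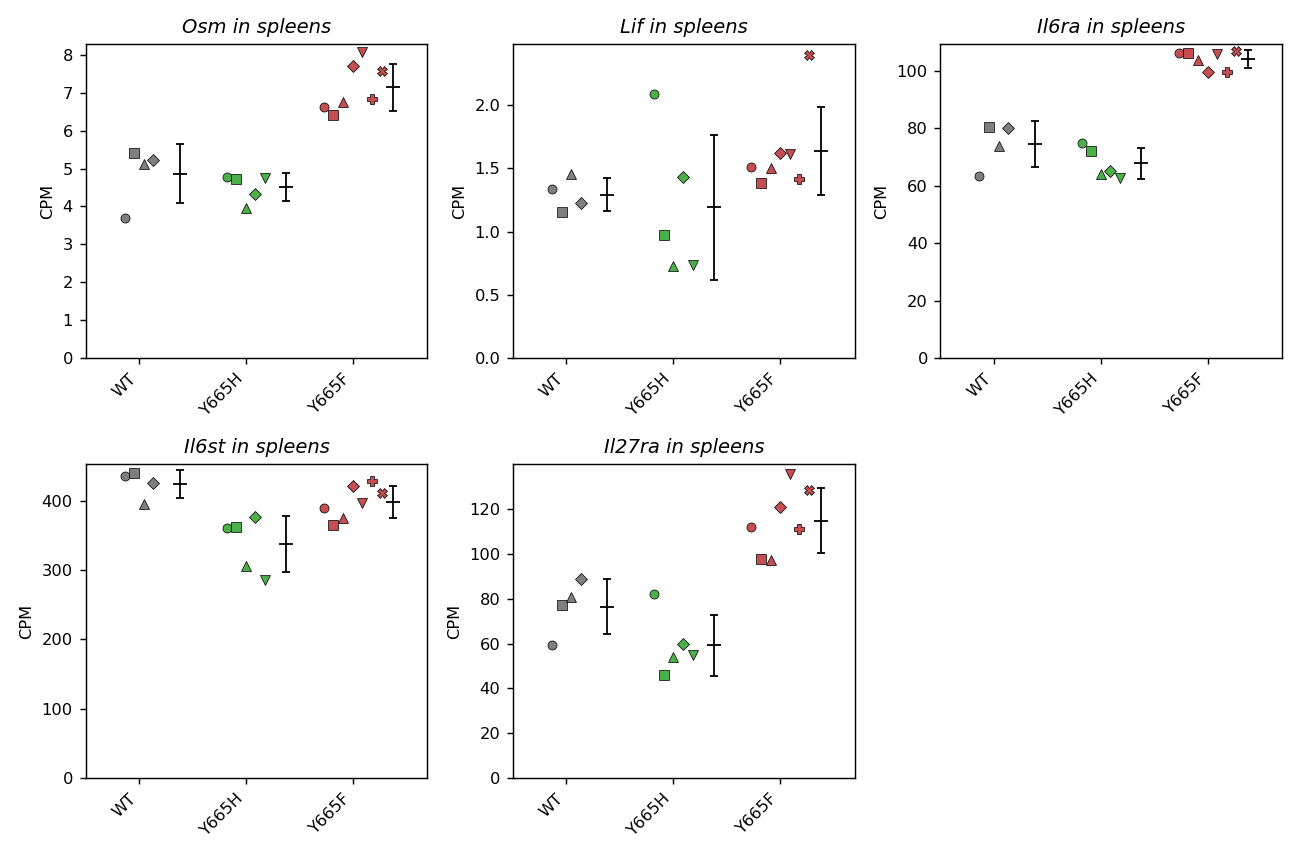
The 5 genes in CPM (linear axes from 0, each with its own range) in the 16 spleen libraries, with 1 marker per library and a bar for the mean and SD of each group. The 7 Y665F spleens lie above the WT and Y665H spleens for Osm, Il6ra and Il27ra, and the 5 Y665H spleens below the WT spleens for Il6st.

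T cell genes moved with these differences. The 10 T cell genes summed to 611 to 732 CPM in WT, 434 to 653 CPM in Y665H and 789 to 1103 CPM in Y665F, and 6 of the 10 rose in Y665F and 6 fell in Y665H against WT. In Y665F against Y665H all 10 rose. The 9 neutrophil genes summed to 201 to 324 CPM in WT, 124 to 1573 CPM in Y665H and 398 to 975 CPM in Y665F, and the 7 erythroid genes found to 712 to 1574, 760 to 5090 and 444 to 1462 CPM. The Y665H medians of the T cell, neutrophil and erythroid lists were 438, 1156 and 4156 CPM. Over all genes, Y665H replicate 1 differed more from the other Y665H spleens than these did from each other. Against WT, 8 of the 9 neutrophil genes rose in Y665H and 5 in Y665F. The 8 monocyte and macrophage genes summed to 1743 to 2158 CPM in WT, 1589 to 2252 CPM in Y665H and 1686 to 1946 CPM in Y665F, and 2 of the 8 fell in Y665F against Y665H. The part of these cell types in the results was not tested. Scaled to the T cell list, which moved the median of all genes by -0.57 for Y665F against WT, the differences of Osm, Il6ra and Il27ra were -0.018, -0.077 and 0.010 (adjusted p = 0.914, 0.609 and 0.935), and Il6st was at -0.67 (adjusted p = 0.000181). For Y665F against Y665H, where the median moved by -1.02, the same scaling gave -0.37 for Osm (adjusted p = 0.00758), -0.40 for Il6ra (adjusted p = 0.00321), -0.79 for Il6st (adjusted p = 1.94e-06) and -0.053 for Il27ra (adjusted p = 0.592). For Y665H against WT, where it moved by 0.45, Il6st was at 0.12 (adjusted p = 0.437), Il27ra at 0.064 (adjusted p = 0.630) and Osm at 0.35 (adjusted p = 0.0452). Such a scaling moves all genes of a comparison by about the same amount, so each value stands relative to the shift given with it.

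Among the 24 other pathway genes in spleens, Socs1 was the only one called, higher in Y665F than in Y665H by 1.07 (SE 0.23, adjusted p = 0.00248). By the adjusted p alone, 2 rose in Y665F against WT, Socs1 by 0.95 and Socs3 by 0.60 (adjusted p = 0.0205 and 0.00742). In Y665H against WT, 2 rose and 4 fell, and among those that fell was the kinase gene Jak1, by 0.31 (adjusted p = 0.00197). In Y665F against Y665H, 6 rose and 4 fell, with Adam10, a sheddase, lower by 0.49 (adjusted p = 0.00851). Of all genes, 12.2%, 19.8% and 25.8% passed in these comparisons, in the same order. The median of the list was -0.0035 for Y665F against WT and -0.014 for Y665H against WT, near the medians of all genes of -0.0043 and 0.00050.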

How the data were processed

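Total RNA was depleted of ribosomal RNA and read from both ends. According to the submitters' processing notes, the authors used Trimmomatic 0.36, STAR, SAMtools 1.9, Picard 2.9.2, FastQC 0.11.9 and HTSeq 0.9.1 with mm10. The deposited files hold raw counts per gene symbol, without normalization. Strand settings and the annotation used for counting are not given in the sources used here. Reads given to no gene, in 5 lines at the end of each file, were left out. They made up 28.4% to 36.9% of the tallied reads in CD4+, 63.9% to 85.7% in splenic T cell and 62.8% to 69.4% in spleen libraries. Pairs of libraries within a group were compared by a chi-square per degree of freedom. No such pair agreed within sampling noise, and the closest, replicates 2 and 3 of Y665H splenic T cells, was at 3.33. Replicates 1 and 2 of that group were at 18.8. Whether replicates 1 and 2, or replicates 2 and 3, are independent was not tested. The p-values of comparisons with Y665H splenic T cells take all 3 as independent. In the same group, replicate 4 of Y665H splenic T cells equalled replicates 1 and 2 summed in all 24421 genes. Replicate 4 was left out, which departs from the planned fit of all splenic T cell libraries.

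The tests came from edgeR 4.0.16 (with limma 3.58.1, R 4.3.3), in 5 fits: null CD4+ (15 libraries), WT CD4+ (15), both (30), splenic T cells (14) and spleens (16). A gene entered a fit where its libraries summed to 10 reads or more. Each fit used TMM factors, glmQLFit with each group as a term and glmQLFTest, with Benjamini-Hochberg adjustment over all its genes, and was tested on simulated data. SE is the log2 fold change over the square root of F. CPM of CD4+ libraries come from the fit of both backgrounds. Splenic T cells and spleens were scaled separately, so levels were not tested across materials. Labels do not tie libraries to animals, so p-values measure the spread between libraries. Same-numbered null libraries deviated together in 30 of 30 pairs (median correlation 0.46), so for null cells the replicate block is given where it changes a call. Alternatives were RLE factors, library totals, DESeq2 1.42.0, other filters, other samples in the fit, a replicate block, 1 RUVr factor, no fold minimum, T cell list scaling and leaving out each library. Leaving out WT replicate 3 and keeping the summed library were chosen after seeing the data. The 5 genes, the lists and the rule for named genes (list genes that passed, and the 3 genes with the highest correlation with each of the 5) were chosen with earlier results of these data known. A gene of the pathway list is counted in it but not reported by name here.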

Additional observations from a re-analysis of the deposited data

Results flagged for a closer look

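In groups of 4 to 10 libraries, 25 combinations of group and gene were examined for a library far from the others, and 3 were found. Chance alone gives about 1 in 20. Osm was at 3.70 CPM in WT spleen replicate 1, against 5.11 to 5.40 CPM in the other WT spleens. Lif was at 2.40 CPM in Y665F spleen replicate 7, against 1.39 to 1.62 CPM in the other 6. Il27ra was at 61.1 CPM in Y665F splenic T cells with interleukin, replicate 3, against 124 to 132 CPM in the other 3 libraries of that group.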

How the results depend on the processing

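Single genes were followed through other settings for the 61 results with an unadjusted p under 0.05 in the main fit. Of their 1024 values, 899 kept direction and side of the adjusted p threshold, which includes those that passed in neither setting. A further 43 no longer passed, 73 newly passed and 9 changed sign. The 9 came from scaling to the T cell list, and their cause was not tested: Il6st in Y665F against WT splenic T cells (0.29), Osm and Il6ra in Y665F against WT spleens (-0.018 and -0.077), Il6st and Il27ra in Y665H against WT spleens (0.12 and 0.064), and Osm, Il6ra, Il6st and Il27ra in Y665F against Y665H spleens (-0.37, -0.40, -0.79 and -0.053). The number of the 5 genes called, from 0, became 2 for WT N642H and 1 for WT Y665F under the replicate block, the RUVr factor, DESeq2 and without replicate 3 of the WT vectors. It became 1 for WT N642H with its groups alone. Without those replicates 3.15% and 2.78% of all genes were called for N642H and Y665F, against 0.985% and 0.707% with them. For the other refits the share of all genes called is not given, so their counts cannot be set against it. For null STAT5B against WT EV the number of the 5 genes became 1 with DESeq2, 1 without those replicates and 2 with a replicate block of its own in each background. In that block the interactions of STAT5B, N642H and Y665F had 2 each. The interaction of STAT5B gave 1 under the common replicate block and 2 without WT replicate 3; that of N642H gave 1 under the block, RUVr, DESeq2 and without WT replicate 3; that of Y665F gave 1 with library totals, no filter, the block and DESeq2, and 2 with RUVr and without WT replicate 3. Same-numbered WT CD4+ libraries deviated together in 29 of 30 pairs, with a median correlation of 0.65 and the lowest pair at 0.016. The WT counts under the block therefore stand beside those of the fit without it, and the fold changes under it are not given. Over 15 other settings, the block among them, Lif and Il6st with N642H and Il6st with Y665F passed in 5 each. Il27ra passed in 4 with N642H and in 5 with Y665F. Splenic T cells deviated together in 4 of 19 pairs and spleens in 4 of 13, so a shared number does not pair libraries of these 2 materials. Under the block, Il6ra did not pass with against without interleukin in Y665F (adjusted p = 0.101). It did not pass in Y665F against Y665H T cells either (0.107). Nor did Osm and Il27ra in Y665F against WT spleens (0.0721 and 0.114), or Il6st in Y665F against Y665H spleens (0.0804). T cell list scaling gave 2 for Y665F against WT splenic T cells, and Y665H against WT gave 1 with RUVr. Keeping the summed Y665H library changed no count of the 5 genes called. Il6ra in Y665F against Y665H T cells also did not pass with its groups alone (adjusted p = 0.05003), while Il6st there passed with library totals (0.0367), filterByExpr (0.0404) and DESeq2 (0.00612). Under the block, 3 of the other pathway genes passed in WT CD4+ cells for N642H and 2 for Y665F, against 0 without it. The share of all genes that passed there is not given. Without a fold minimum the spleens gave 3, 1 and 4, and library totals gave 1 for Y665F against Y665H. Leaving out each library gave 0 to 2 for null Y665H against STAT5B (2 with all libraries), and 0 to 1 for WT N642H, WT Y665F, null STAT5B against WT EV, the interactions of N642H and Y665F and Y665F against Y665H spleens. The libraries whose absence gave the added calls were replicate 3 of WT N642H (Lif 1.37, adjusted p = 0.0377), of WT Y665F (Il6st -1.32, adjusted p = 0.0206), of WT EV and of null Y665F, Y665H spleen replicate 1 and Y665F spleen replicates 2 and 3. In null cells the block changed no call beyond those of Lif for Y665H against EV and of Il6st for Y665H against STAT5B. The causes of these changes were not tested. Depth limits Lif in splenic T cells, where a Y665H library held 1 to 5 reads.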
